A study of Homo sapiens with 9 samples.

Results

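The ETS family is a group of transcription factors that share a DNA-binding domain, the ETS domain, which recognises a GGAA core in DNA. ETV1, ETV4 and ETV5 form the PEA3 subfamily, whose transcription is driven by the ERK kinase pathway and held down by the repressor capicua. ETS1, ETS2 and ELK3 are ETS factors whose activity is changed when ERK phosphorylates them, while ELF3 and EHF are known from epithelial differentiation. Here 10 ETS genes, taken by their symbols (ETV1, ETV4, ETV5, ETV6, ETS1, ETS2, ELK3, ELF3, ELF4 and EHF), were followed among the 58219 gene identifiers of the deposited counts. All 10 had a row in the files, and all 10 passed the filter on low counts.

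RNA sequencing counts came from PLC/PRF/5, a human hepatoma cell line. In 5 samples the cells stably expressed the tyrosine kinase YES with the gatekeeper change T348I, which lies in the kinase's drug pocket, and in 4 samples they stably expressed wild-type YES (WT). Every sample had received dasatinib at 100 nM, a drug that blocks ABL and Src family kinases, so each comparison is T348I over WT in the presence of the drug. Titles spell the drug as dasatinib (3 T348I and 3 WT samples) or as Dasa (2 T348I and 1 WT samples), called here the dasatinib set and the Dasa set. The labels do not say whether each line is 1 clone, nor whether replicates are separate cultures. The p-values therefore rest on a spread that could be technical alone.

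T348I samples held 10381142 to 15799059 gene reads and WT samples 10464731 to 14118614. All genes of the mitochondrial genome took 7.38% to 9.44% of gene reads in the dasatinib set and 15.25% to 17.01% in the Dasa set. YES1, the gene of the introduced kinase, stood at 605, 581 and 553 CPM in T348I samples of the dasatinib set and at 974 and 1030 CPM in those of the Dasa set, against 362, 345, 341 and 368 CPM in WT samples. CPM are gene reads scaled to a common library size with TMM factors. YES1 was higher by 0.95 on the log2 scale (SE 0.0872, edgeR adjusted p = 4.84e-08), and the count does not tell the introduced from the endogenous transcript. Of 12 hepatocyte markers, 11 were expressed above the filter, with summed levels of 5930 to 7660 CPM in T348I samples and 6600 to 9770 CPM in WT samples, although ALB, albumin, was at only 2.49 ± 0.896 CPM in T348I samples (SD, n = 5) and 3.95 ± 0.478 CPM in WT samples (SD, n = 4). Of these 11, 7 fell, among them APOA1 (-1.67), TF (-0.76), AFP (-0.57) and HNF4A (-0.25, log2), and ASGR2 rose (0.40). Of 5 epithelial markers, KRT8 (0.94), KRT18 (1.22) and KRT19 (1.66) rose, CDH1 fell (-0.83) and EPCAM held at most 11 reads, with summed levels of 4690 to 5560 CPM in T348I samples and 2100 to 2630 CPM in WT samples. Of 8 endothelial markers, 7 held at most 10 reads in any sample, as did 6 of 8 blood markers, the defining marker PTPRC among them. Blood markers summed to 805 to 1410 CPM in T348I samples and 960 to 1260 CPM in WT samples, most of it LYZ. Of them CD79A was called higher, at 1.33 ± 0.299 CPM in T348I samples (SD, n = 5) and 0.0836 ± 0.0973 CPM in WT samples (SD, n = 4). CD79A held at most 24 reads in any sample and passed the filter through the T348I samples. Of 6 fibroblast markers, which summed to 4.82 to 10.4 CPM in T348I samples and 3.7 to 8.94 CPM in WT samples, COL1A1 was called higher. In bulk RNA a larger share of expressing cells and more RNA per cell cannot be told apart.

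The PEA3 genes encode nearly the same ETS domain, which matters for counts of reads that map to 1 place. The 90 coding bases of ETV1 that best match ETV4 and ETV5 are shown with those matches, from GENCODE release 29 transcripts. They lie inside the part that encodes the ETS domain, with capitals at the bases that are not the same in all of them:
ETV1: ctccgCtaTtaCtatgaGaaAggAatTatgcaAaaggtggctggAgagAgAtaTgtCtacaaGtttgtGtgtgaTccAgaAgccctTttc
ETV4: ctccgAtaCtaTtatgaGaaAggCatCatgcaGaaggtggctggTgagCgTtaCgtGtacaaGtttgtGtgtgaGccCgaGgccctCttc
ETV5: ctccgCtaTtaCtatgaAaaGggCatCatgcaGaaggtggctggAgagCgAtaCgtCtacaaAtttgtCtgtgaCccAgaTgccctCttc
In this stretch 71 of 90 bases were the same in the 3 genes, and pairs shared 83.3% (ETV1 and ETV4), 86.7% (ETV1 and ETV5) and 85.6% (ETV5 and ETV4). Across the whole coding sequences the longest identical run was 17 bases between ETV1 and ETV4, 18 between ETV1 and ETV5 and 33 between ETV5 and ETV4. The read length is not given in the sources used here.

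Promoter windows of RefSeq on GRCh38.p14, each 300 bases long, were found for 7 of the 10 genes (17 windows) and not for ETV4, ETV5 and ETS1. A capicua octamer, TGAATGGA, was present on either strand in 1 of the 17 windows, at ETV1, and in 1.03% of all 35116 windows. The window at chr7:13991376-13991675 on the minus strand is shown because ETV1 is an ERK-driven member, with the octamer in capitals, its first base 125 bases before the transcript start:
ETV1 promoter: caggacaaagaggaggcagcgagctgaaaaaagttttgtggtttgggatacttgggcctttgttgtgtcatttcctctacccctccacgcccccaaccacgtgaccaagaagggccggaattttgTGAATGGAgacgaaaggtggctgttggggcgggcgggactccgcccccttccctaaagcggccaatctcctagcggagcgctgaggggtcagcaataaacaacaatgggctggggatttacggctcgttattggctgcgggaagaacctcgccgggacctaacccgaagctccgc
The other octamer searched, TGAATGAA, was in 0 of the 17 windows and in 1.65% of all windows. The AP-1 motif TGAGTCA, whose other strand reads TGACTCA, was in 1 of the 17 windows, at ELF4, and in 4.95% of all windows. The ETS motif CCGGAAGT (4.14% of all windows) and 2 forms of the serum response element (0.0342% and 0.037%) were in 0 of the 17 windows. A match is a description of these letters and does not show binding.

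Of the 10 ETS genes, 7 rose in T348I samples, 0 fell and 3 did not pass the edgeR test, whose threshold was an adjusted p of 0.05 over all genes. Among all 14617 genes tested, 42.5% were called by the same rule, 20.7% higher and 21.8% lower. The 10 genes were chosen with earlier results of these data known, so the counts describe them and are not a result for the ETS family. Of the 8 other ETS family genes tested, 1 was called higher and 1 lower. ETS1, ELK3, ETS2, ETV5, ETV1, ETV4 and ETV6 rose, in order of falling fold, and ELF3, ELF4 and EHF did not pass. The median log2 fold change of the 10 genes was 0.54, against -0.01 for all genes tested. In 6 of the 10 every T348I sample lay above every WT sample, against 10.2% of all genes, and in 0 of them below, against 9.41%. ETS1 and ELK3 rose at least 2-fold, as did 2.43% of all genes. ETS1 is in each of these counts of rising genes and passed the filter on low counts through the T348I samples. Its lack of overlap is therefore no separate support. In the dasatinib set alone 6 of the 10 were called, all but ETV1 of the 7, against 18.5% of genes called higher there.

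**Figure D1:**
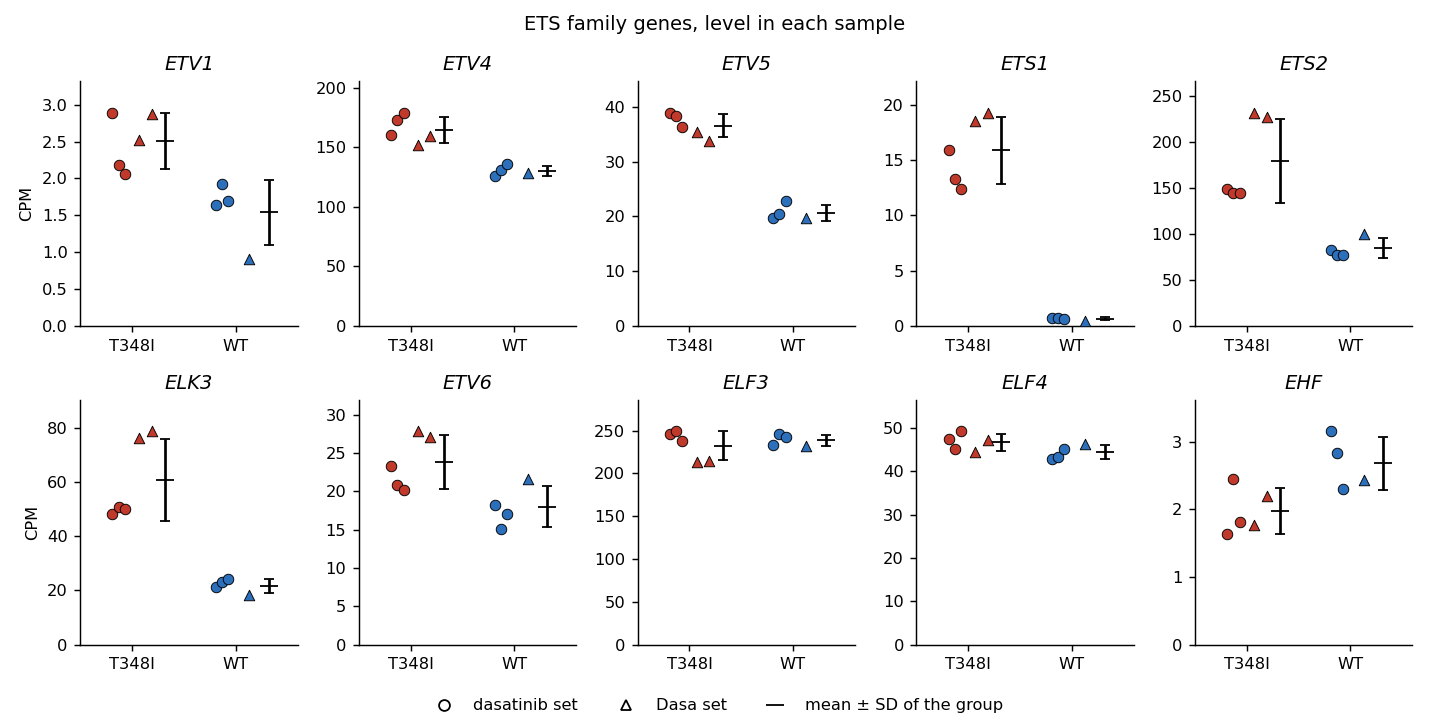
CPM of each of the 10 ETS genes (vertical axis, from 0) in each sample, T348I (red) left of WT (blue), with circles for the dasatinib set, triangles for the Dasa set and bars for the mean ± SD of each group. ETS1 stands at 12.4 to 19.2 CPM in T348I samples and at most 0.753 CPM in WT samples, while ELF3, ELF4 and EHF overlap between the groups.

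The ERK-driven PEA3 genes were all called higher over both sets, ETV5 by more than ETV4. The call of ETV1 rested on few reads and held in 14 of 17 alternatives. ETV5 (ENSG00000244405.7, chromosome 3, 186046308 to 186110318, minus strand, GRCh38), a PEA3 factor known from branching organs and stem cells, stood at 38.9, 38.3 and 36.4 CPM in T348I samples of the dasatinib set and at 35.4 and 33.8 CPM in those of the Dasa set. WT samples held 19.8, 20.5 and 22.7 CPM in the dasatinib set and 19.6 CPM in the Dasa set. The groups did not overlap, and the samples of each lay close together in both sets. ETV5 rose by 0.84 (log2, SE 0.0577, edgeR adjusted p = 6.71e-10), a fold of 1.79.

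ETV4 (ENSG00000175832.12, chromosome 17, 43527844 to 43579620, minus strand), also called PEA3 and the founding member of the subfamily, was the most abundant of the PEA3 genes per length. It stood at 160.5, 173 and 178.7 CPM in T348I samples of the dasatinib set and at 152 and 159 CPM in those of the Dasa set, against 125.6, 130.5 and 135.6 CPM and 128.4 CPM in WT samples of the same sets. All T348I samples were above all WT samples, by a small margin. ETV4 rose by 0.35 (log2, SE 0.0417, edgeR adjusted p = 1.29e-06), a fold of 1.28.

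ETV1 (ENSG00000006468.13, chromosome 7, 13891228 to 13991425, minus strand), a PEA3 factor known as an oncogene in prostate and gastrointestinal stromal tumours, was barely expressed, with 24 to 38 reads in a T348I sample and 12 to 25 in a WT sample. That was 2.89, 2.18 and 2.07 CPM in T348I samples of the dasatinib set and 2.52 and 2.88 CPM in those of the Dasa set, against 1.64, 1.92 and 1.69 CPM in WT samples of the dasatinib set and 0.91 CPM in that of the Dasa set. The groups did not overlap, but WT Dasa replicate 1 lay well under the other WT samples. On the log2 scale ETV1 rose by 0.72 (SE 0.216, edgeR adjusted p = 0.0116). Without WT Dasa replicate 1 it was 0.44 and was not called (edgeR adjusted p = 0.15), nor was it called without the set term (0.70, edgeR adjusted p = 0.0701).

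Whether the PEA3 genes moved by unequal amounts was tested on the log2 ratio of 2 genes within a sample, after their values had been seen, among 5 such pairs. The log2 ratio of ETV5 to ETV4 was -2.16 ± 0.099 in T348I samples (SD, n = 5) and -2.63 ± 0.055 in WT samples (SD, n = 4). The difference of 0.47 gave an exact permutation p of 0.0079, or 0.013 adjusted over the pairs, where 0.0079 is the smallest this design allows. The adjusted value counts the pair of ETS1 and ETS2, whose ratio is given below as a description only. Since the pairs were picked after their values were seen, these p-values describe them and are not independent support. In these samples ETV5 rose more than ETV4, by 0.45 in the dasatinib set and 0.53 in the Dasa set. The change of ETV1 differed from that of ETV4 by 0.24 (exact permutation p = 0.28) and the change of ETV5 from that of ETV1 by 0.23 (exact permutation p = 0.24), and neither passed (0.28 adjusted for both).

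ETS1 changed most of the 10 genes. ETS1 (ENSG00000134954.14, chromosome 11, 128458761 to 128587558, minus strand), the founding ETS factor, is known in lymphoid and endothelial cells and in invasive carcinoma. T348I samples held 15.9, 13.3 and 12.4 CPM in the dasatinib set, and in the Dasa set 18.5 and 19.2 CPM. WT samples held 0.753, 0.731 and 0.609 CPM in the dasatinib set and 0.455 CPM in the Dasa set, which is 6 to 11 reads a sample. ETS1 was thus nearly silent in every WT sample and clearly expressed in every T348I sample, and it passed the filter on low counts through the T348I samples. This made a log2 difference of 4.55 (SE 0.169, edgeR adjusted p = 5.03e-14), a fold of 23.4 whose WT side rests on 34 reads in all. With no filter on low counts the log2 difference was 4.54 and was called as well.

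ETS2 (ENSG00000157557.11, chromosome 21, 38805307 to 38824955, plus strand), the close relative of ETS1, was already well expressed in WT samples. It stood at 149, 145 and 145 CPM in T348I samples of the dasatinib set and at 231 and 227 CPM in those of the Dasa set, against 82.7, 77.3 and 77.2 CPM and 100.3 CPM in WT samples of the same sets. Both sets showed a clear gap between the groups, and the Dasa set lay higher in each group. ETS2 rose by 0.98 (log2, SE 0.05, edgeR adjusted p = 7.15e-12). The log2 ratio of ETS1 to ETS2 was -3.44 ± 0.16 in T348I samples (SD, n = 5) and -6.22 ± 0.339 in WT samples (SD, n = 4). These ratios are given as a description, since ETS1 levels in WT samples lay close to the 0.5 CPM added before taking logs.

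ELK3 (ENSG00000111145.7, chromosome 12, 96194382 to 96269835, plus strand) is a ternary complex factor, which binds DNA together with SRF and is known to repress transcription until it is phosphorylated. T348I samples held 48.2, 50.8 and 50.1 CPM in the dasatinib set, and in the Dasa set 76.4 and 78.8 CPM. WT samples held 21.4, 23.1 and 24.1 CPM in the dasatinib set and 18.2 CPM in the Dasa set. The rise in ELK3 was 1.41 on the log2 scale (SE 0.111, edgeR adjusted p = 5.36e-09). The other ternary complex factors did not pass: ELK1 had a log2 fold change of -0.02 (edgeR adjusted p = 0.753) and ELK4 of 0.04 (edgeR adjusted p = 0.55). The log2 ratio of ELK3 to ELK1 was -0.51 ± 0.414 in T348I samples (SD, n = 5) and -1.997 ± 0.066 in WT samples (SD, n = 4). This made a difference of 1.49 (exact permutation p = 0.0079, adjusted 0.013). The difference was 1.18 in the dasatinib set and 1.96 in the Dasa set, and the permutation takes no account of the set. This pair, too, was picked after its values were seen, so its p-values describe it.

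ETV6 (ENSG00000139083.10, chromosome 12, 11649854 to 11895402, plus strand), a transcriptional repressor also called TEL and known from leukaemia fusions, rose slightly. It stood at 23.3, 20.7 and 20.1 CPM in T348I samples of the dasatinib set and at 27.8 and 27.0 CPM in those of the Dasa set, against 18.2, 15.1 and 17.1 CPM and 21.5 CPM in WT samples of the same sets. The groups overlapped over all samples, since WT Dasa replicate 1 lay above 2 of the T348I samples of the dasatinib set, but not within either set. ETV6 rose by 0.34 (log2, SE 0.0684, edgeR adjusted p = 0.000491), and it was not called without the set term (0.40, edgeR adjusted p = 0.0615).

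The ETS genes known from epithelia and ELF4 did not pass the test. ELF3 (ENSG00000163435.15, chromosome 1, 202007945 to 202017188, plus strand), an epithelium-specific ETS factor, was abundant, at 247, 249 and 238 CPM in T348I samples of the dasatinib set and 214 and 215 CPM in those of the Dasa set, against 233, 246 and 242 CPM and 232 CPM in WT samples of the same sets. Its log2 fold change was -0.02 (SE 0.0372, edgeR adjusted p = 0.698). ELF4 (ENSG00000102034.16, chromosome X, 130064874 to 130110716, minus strand), known in immune cells, ranged over 44.5 to 49.2 CPM in T348I samples and 42.8 to 46.5 CPM in WT samples, with a log2 fold change of 0.07 (SE 0.0483, edgeR adjusted p = 0.292).

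EHF (ENSG00000135373.12, chromosome 11, 34621093 to 34661057, plus strand), the other epithelium-specific factor here, was weak, with 17 to 46 reads a sample. It stood at 1.64, 2.44, 1.81, 1.77 and 2.2 CPM in T348I samples, against 3.15, 2.83, 2.3 and 2.43 CPM in WT samples. The groups overlapped in a single T348I sample. For EHF the log2 difference was -0.40 (SE 0.184), which did not pass (edgeR adjusted p = 0.0874), while the exact permutation test of this gene alone gave p = 0.04.

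**Figure D2:**
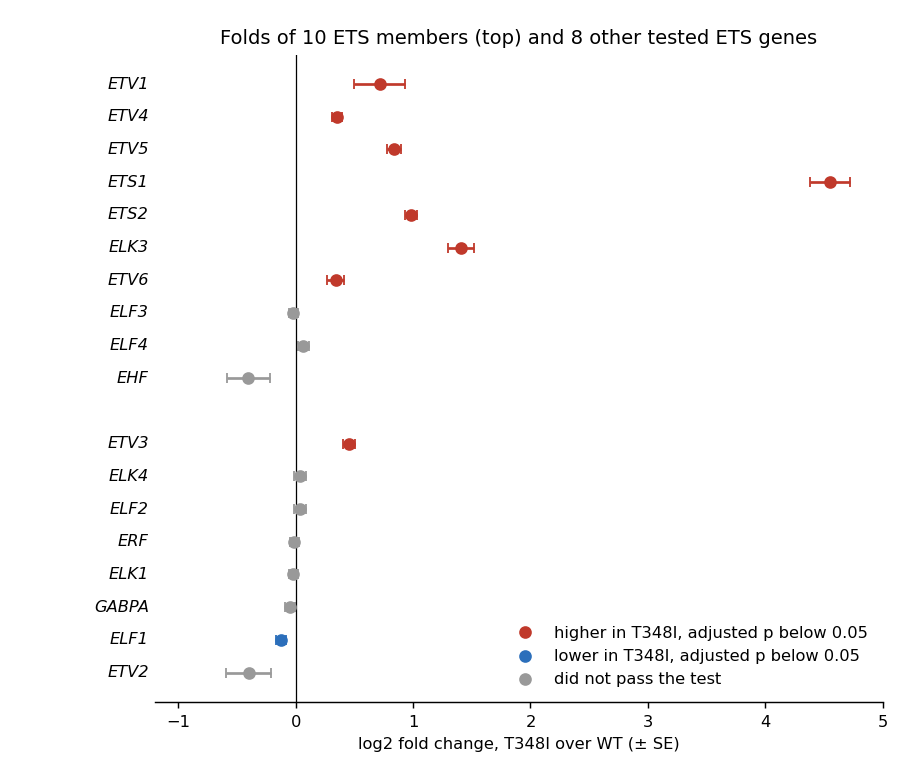
Log2 fold change of T348I over WT (horizontal axis, ± SE from the edgeR fit) of the 10 ETS genes (top) and of the 8 other ETS genes that passed the filter (bottom), red where called higher, blue where called lower and grey where not called. ETS1 lies apart at 4.55, and 6 of the 8 others are grey.

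Per length, ETV4, ETS2 and ELF3 were the most abundant of the 10 genes in both groups, in an order that differed between the sets in T348I samples. ERF, outside the 10, averaged 45.1 RPKM in T348I samples and 43.7 RPKM in WT samples. Levels were taken as reads per kilobase of merged exons, scaled to CPM (RPKM), a measure that uses all annotated exons of a gene and so understates genes with many unused exons. In T348I samples ETV4 averaged 45.7 RPKM, ETS2 39.0 RPKM and ELF3 32.3 RPKM over both sets. In the dasatinib set ETV4 held 44.48 to 49.55 RPKM, ELF3 33.07 to 34.64 RPKM and ETS2 31.46 to 32.38 RPKM in T348I samples. In the Dasa set ETS2 came first with 50.34 and 49.31 RPKM, ahead of ETV4 with 42.15 and 44.11 RPKM and ELF3 with 29.74 and 29.83 RPKM. In WT samples ETV4 averaged 36.0 RPKM, ELF3 33.2 RPKM and ETS2 18.4 RPKM, with no overlap. ELK3 averaged 13.1 RPKM in T348I samples, where its range overlapped that of ELF4 (10.8 RPKM), and 4.67 RPKM in WT samples, where it lay under ELF4 (10.3 RPKM) and overlapped ETV5 (3.56 RPKM). ETV5 (6.3 RPKM in T348I samples) and ETV6 (3.36 RPKM in T348I samples and 2.54 RPKM in WT samples) followed. ETS1 was eighth with 2.22 RPKM in T348I samples and last with 0.0891 RPKM in WT samples, where its range overlapped that of ETV1 (0.16 RPKM). EHF (0.449 RPKM in T348I samples and 0.61 RPKM in WT samples) and ETV1 (0.261 RPKM in T348I samples) were the lowest others.

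**Figure D3:**
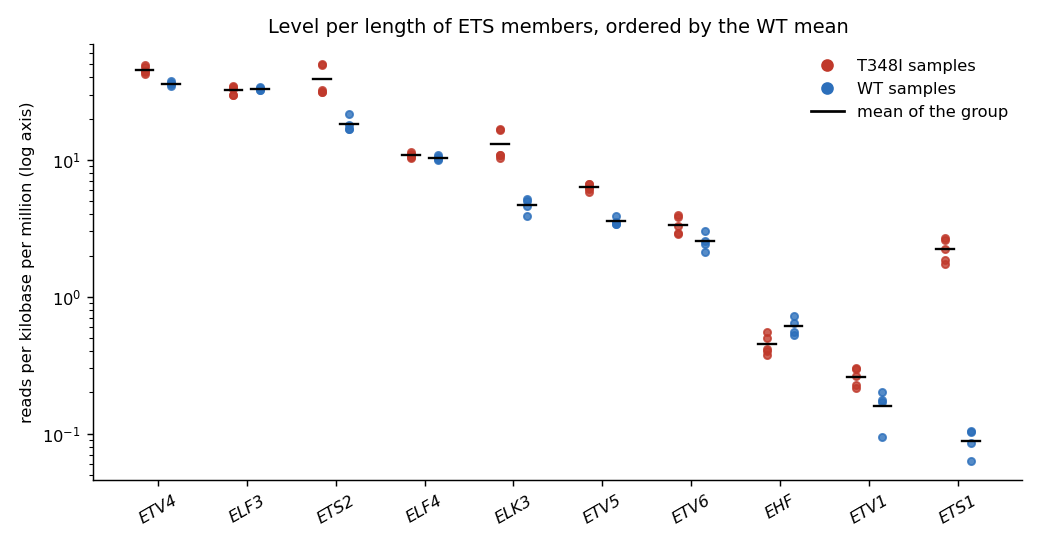
Level per length of each of the 10 ETS genes in RPKM (vertical log axis), ordered by the WT mean, with T348I samples (red) left of WT samples (blue) and black lines at the group means. ETV4, ELF3 and ETS2 have the highest means of the 10 in both groups, and ETS1 moves off the bottom, at 2.22 in T348I samples and 0.0891 in WT samples.

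Summed over 28 ETS family genes, the level per length was 267 ± 10.7 RPKM in T348I samples (SD, n = 5) and 223 ± 4.03 RPKM in WT samples (SD, n = 4), with ranges of 256 to 281 and 220 to 229 that did not overlap. The 10 genes followed here held 57.4% ± 1.13 of that sum in T348I samples (SD, n = 5) and 49.0% ± 0.521 in WT samples (SD, n = 4). Since the 10 were chosen with earlier results of these data known, this share is a description. ETS2 held 14.5% ± 3.12 in T348I samples and 8.21% ± 0.925 in WT samples, and ELK3 held 4.87% ± 1.03 in T348I samples and 2.09% ± 0.273 in WT samples. ETS1, for all its fold, held 0.828% ± 0.134 in T348I samples and 0.04% ± 0.00921 in WT samples.

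The other 18 ETS family genes gave 1 called higher and 1 called lower of 8 tested, with a median log2 fold change of -0.01. ETV3, a repressor related to ERF, rose by 0.46 (SE 0.0507, edgeR adjusted p = 5.52e-07), at 43.7 to 48.4 CPM in T348I samples and 31.4 to 34.1 CPM in WT samples. ELF1 was called lower at -0.13 (edgeR adjusted p = 0.0272) with overlapping groups, and in the dasatinib set alone and without WT Dasa replicate 1 it was -0.06 and not called. Leaving out WT dasatinib replicate 2, T348I dasatinib replicate 1 or either T348I Dasa replicate also ended the call. ERF, an ERK-controlled repressor, had a log2 fold change of -0.01, ELF2 of 0.04, GABPA, a factor of housekeeping and mitochondrial genes, of -0.05, and ETV2, a factor of early blood vessels, of -0.40 (edgeR adjusted p = 0.106 for ETV2). Of the beta partners of GABPA, GABPB1 rose by 0.17 (edgeR adjusted p = 0.00823) and GABPB2 had a log2 fold change of 0.09. The other 10 genes were not tested, with at most 9 reads in any sample: ERG held 1 read over all samples, FLI1, FEV and ETV3L held 0, and SPI1, SPIB, SPIC, ETV7, ELF5 and SPDEF held a few. ERG, FLI1 and SPI1 are known from endothelium and blood, most of whose markers were near 0 as well.

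With a set and a group term in the model, levels differed between the sets in 5 of the 10 genes, against 58.6% of all genes. ETV6, ETS1, ETS2 and ELK3 had a higher fitted level in the Dasa set and ELF3 a lower one. For ETS1 and ELK3 the higher level held in T348I samples only. In WT samples ETS1 was at 0.455 CPM in the Dasa set and 0.609 to 0.753 CPM in the dasatinib set. ELK3 was at 18.2 CPM and 21.4 to 24.1 CPM in the same WT samples. The fold differed between the sets in ELK3 and ETS2. The interaction of set and group passed for these 2 of the 10 genes, against 7.33% of all genes. The log2 fold change of ELK3 was 2.09 in the Dasa set and 1.12 in the dasatinib set, a difference of 0.97 (edgeR adjusted p = 3.14e-07). That of ETS2 was 1.19 in the Dasa set and 0.88 in the dasatinib set, a difference of 0.31 (edgeR adjusted p = 0.00471). YES1 itself had log2 folds of 1.45 in the Dasa set and 0.73 in the dasatinib set, a difference of 0.71 (edgeR adjusted p = 2.3e-09). Its part in the differences of ELK3 and ETS2 was not tested. ETS1 had log2 folds of 5.35 and 4.29 in the Dasa and dasatinib sets (edgeR adjusted p of the difference 0.336) and ETV1 of 1.56 and 0.43 (edgeR adjusted p of the difference 0.167). The Dasa set holds 1 WT sample, whose spread the test borrows from the rest. ETV5 had 0.82 and 0.85 and ETV4 0.28 and 0.39, and the difference passed for neither.

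**Figure D4:**
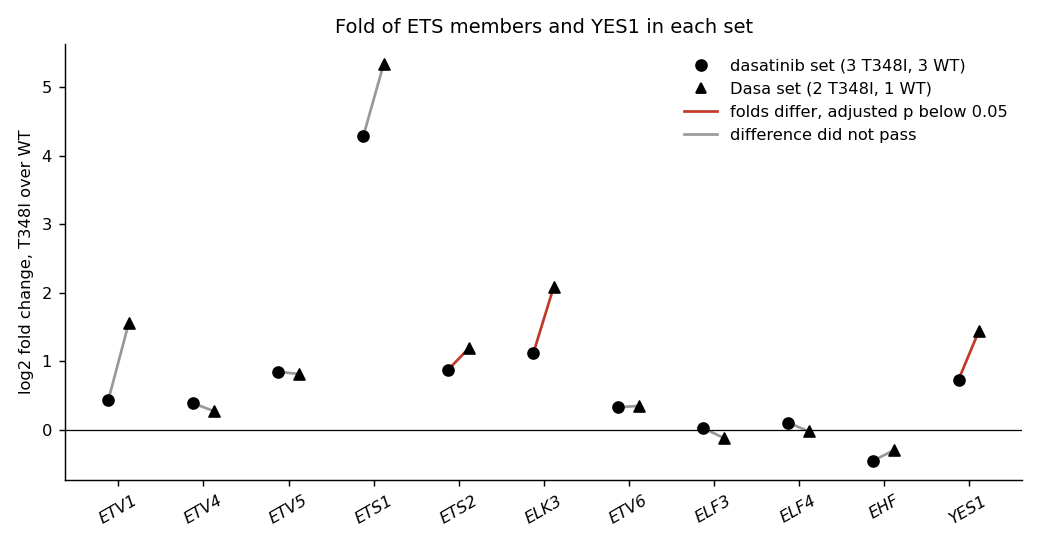
Log2 fold change of T348I over WT (vertical axis) in the dasatinib set (circles) and the Dasa set (triangles) for the 10 ETS genes and YES1, joined in red where the difference between sets passed the edgeR interaction test and in grey where it did not. ELK3, ETS2 and YES1 are joined in red, each with the larger fold in the Dasa set.

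Of 16 genes that act on ETV1, ETV4 and ETV5, all tested, 3 rose and 5 fell, near the 20.7% and 21.8% of all genes, with a median log2 fold change of -0.11. The capicua complex showed no call: CIC, capicua itself, had a log2 fold change of -0.03, ATXN1 of -0.05 and ATXN1L of -0.03. Among genes of PEA3 protein turnover, COP1, the ubiquitin ligase that degrades PEA3 factors, fell by 0.22 (edgeR adjusted p = 0.00038), and TRIB1, an adaptor that recruits targets to COP1, rose by 1.85 (SE 0.0824, edgeR adjusted p = 9.56e-13), at 49.6 ± 13.8 CPM in T348I samples (SD, n = 5) and 12.7 ± 1.06 CPM in WT samples (SD, n = 4). The nuclear receptor coactivator gene NCOA3 fell by 0.46 (edgeR adjusted p = 6.63e-09). COP1 was not called without the set term (-0.25). Without that term 1 of the 16 rose and 2 fell.

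Of 13 transcripts known as readouts of ERK activity or capicua targets, 10 were tested. Of these 9 rose, against 20.7% of all genes, with a median log2 fold change of 1.005. SPRY4 and DUSP6, feedback inhibitors of receptor and ERK signalling, rose by 2.25 and 1.58, the receptor kinase gene EPHA2 by 1.66 and CCND1, cyclin D1, by 1.35, with edgeR adjusted p of 4.52e-15, 1.32e-13, 1.78e-12 and 2.1e-11. In all 9 every T348I sample lay above every WT sample, against 10.2% of all genes. SPRED3 (0.20) was not called, and EPHA4, SHC3 and SHC4 held at most 8 reads in any sample. Over both sets ETV5 and ETV4, at 0.84 and 0.35, lay under the median of this list. In the dasatinib set alone the median was 0.822, with ETV5 at 0.85 above it and ETV4 at 0.39 under it. By the interaction test 7 of the 10 tested had a fold that differed between the sets, against 7.33% of all genes. Each of the 7 had the larger fold in the Dasa set, which holds 1 WT sample.

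Of 20 genes described as targets of PEA3 factors, ETS1 and ETS2, 10 were tested. Of these 9 rose and 0 fell, against 20.7% and 21.8% of all genes, with a median log2 fold change of 0.41. The 10 not tested held at most 14 reads in any sample. With no filter 13 of the 20 were called higher and the median was 1.599. Both values take in those genes of few reads, where a fold is unreliable, such as MMP3 with 49 reads over the T348I samples and 1 over the WT samples. The collagenase gene MMP1 stood at 228 ± 29.8 CPM in T348I samples (SD, n = 5) and 0.334 ± 0.0718 CPM in WT samples (SD, n = 4). MMP1 had 18 reads over the WT samples and passed the filter through the T348I samples. PLAU, urokinase, stood at 52.5 ± 13.9 CPM in T348I samples and 2.41 ± 0.501 CPM in WT samples, a log2 fold change of 4.34 (SE 0.124, edgeR adjusted p = 1.02e-15). Its receptor gene PLAUR rose by 2.41 (edgeR adjusted p = 1.43e-12) and the chemokine receptor gene CXCR4 by 2.68 (edgeR adjusted p = 9.91e-07). CXCR4 had 149 reads over the T348I samples and 19 over the WT samples, and it passed the filter through the T348I samples. The rises of VEGFA (0.17), MET (0.30), ANPEP (0.34) and TERT (0.47), whose promoter is known for ETS sites gained in cancer, were small and not called without the set term, where 5 of the 10 were called. SPP1 had a log2 fold change of -0.09 and was not called.

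The partners and targets of ELK3 gave 9 higher and 0 lower of 11 tested, against 20.7% and 21.8% of all genes. The list has 13 genes and holds ELK1 and ELK4 as well, and the 2 not tested held at most 29 reads in any sample. Without the set term 7 were called higher. Among the 9, MRTFA (0.16, edgeR adjusted p = 0.0268) and MRTFB (0.43, edgeR adjusted p = 0.000705) had overlapping groups. The call of MRTFA held in 10 of 17 alternatives and that of MRTFB in 16. By the interaction test 4 of the 11 tested had a fold that differed between the sets, against 7.33% of all genes. The Dasa set holds 1 WT sample. SRF, the DNA-binding partner of the ternary complex factors, rose by 0.35 (edgeR adjusted p = 0.000119). EGR1 and CCN1, early response genes with SRF sites, rose by 2.30 and 2.94 (edgeR adjusted p of 1.37e-15 and 5.83e-15), JUNB by 1.34 (edgeR adjusted p = 1.24e-14) and the survival gene MCL1 by 0.80 (edgeR adjusted p = 1.68e-12).

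Of 20 genes linked to ELF3, EHF and epithelial state, 9 were tested, 1 rose and 3 fell, against 20.7% and 21.8% of all genes. The counts therefore do not set the list apart. The list also holds ZEB1 and ZEB2, which repress epithelial genes, so its counts and median give no single direction for epithelial genes. The median log2 fold change was -0.28, or -0.12 with no filter on low counts. The keratin markers given above rose and CDH1 fell, and their part in the values of this list was not tested. TGFBR2, a receptor gene described as a target of ELF3, fell by 0.32 (SE 0.0335, edgeR adjusted p = 2.73e-07), at 322 to 335 CPM in T348I samples and 398 to 425 CPM in WT samples. The splicing factor gene ESRP2 fell by 0.30 (edgeR adjusted p = 0.000369) and ZEB2 by 0.28 (edgeR adjusted p = 0.0302), while ZEB1, a repressor of epithelial genes, rose by 0.32 (edgeR adjusted p = 0.000182). The 11 not tested held at most 11 reads in any sample. The calls of ESRP2, ZEB1 and ZEB2 were lost without the set term, where 0 rose and 1 fell, and that of ZEB2 was also lost with DESeq2 (adjusted p = 0.11), with the replicate block (edgeR adjusted p = 0.053) and on leaving out WT dasatinib replicate 2 or 3 or any T348I dasatinib replicate. GRHL2 and ESRP1, defining genes of many epithelia, held at most 1 read in any sample, and KLF5 had a log2 fold change of 0.05.

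The genes whose profile over the 9 samples was most like that of each PEA3 gene were found by the root mean square difference of log2 CPM after centring each gene on its mean, among 12601 candidates. For ETV5 they were TCIM (0.0617), MCL1 (0.0771) and STAT3, a transcription factor gene of cytokine signalling (0.0819). For ETV4 they were NTS, the neurotensin gene (0.0627), the kinase gene NEK3 (0.063) and DLGAP1 (0.0648). For ETV1 they were BTBD10 (0.12), the noncoding RNA LINC00623 (0.133) and STC2, stanniocalcin 2 (0.133). The points share libraries and groups, and the measure is a description.

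Overlapping genes could add reads to a few of these counts. GENCODE release 29 places DGKG on the same strand as part of ETV5, and antisense genes across ETV5, ETS1, ELK3 and ELF3, and DHX8 across ETV4 on the other strand. The counts used are of the sense strand, which keeps antisense reads out. Reads on the opposite strand were 4.9% of sense reads at ELF3 in T348I samples and 5.29% in WT samples, and at the genes that rose at most 1.21% in T348I samples and 0.862% in WT samples.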

How the data were processed

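Each sample has 1 deposited file of raw counts for every gene. The submitters' processing notes name STAR 2.5.1b, Trimmomatic 0.35, CASAVA 1.8.2 and the build GRCh38 for what the authors did. Libraries came from a stranded polyA kit, per the labels' protocols, and column 4 (sense strand) was used. The annotation release is not given in the sources used here. Rows that name no gene held 22.2% to 29.8% of reads and were left out. Symbols were matched for 57392 identifiers, and coordinates and exon lengths are from GENCODE release 29, where all 10 genes had the same version number.

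Counts were filtered with filterByExpr by group, scaled by TMM and tested in R 4.3.3 with edgeR 4.0.16 (quasi-likelihood F-test, model with set and group, Benjamini-Hochberg over 14617 genes, threshold 0.05), of which 6212 were called. Log2 ratios within a sample used CPM plus 0.5, and exact permutation tests were two-sided. Alternatives were 2 other scalings, DESeq2 1.42.0, no filter, no set term, a replicate block, the dasatinib set alone, counts without regard to strand, and leaving out each sample. The scripts were tested on simulated data.

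Same-group samples differed beyond sampling noise (a chi-square of 1.49 to 3.1 per gene), so none was counted as a duplicate. The members and lists were chosen with earlier results of these data known. All 10 members were named, with up to 4 called genes of smallest p per list, 1 of which is not reported here, and other genes were chosen after their values were seen.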

Additional observations from a re-analysis of the deposited data

Results flagged for a closer look

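The fold of ELK3 was larger in the Dasa set by 0.97 on the log2 scale, and that of ETS2 by 0.31, each by the edgeR test of the interaction of set and group (adjusted p = 3.14e-07 and 0.00471). Over 13 alternatives the difference ran from 0.93 to 1.02 for ELK3 and from 0.28 to 0.33 for ETS2 and stayed called. All 13 kept WT Dasa replicate 1, the only WT sample of the Dasa set, without which the interaction cannot be fitted. They therefore do not show whether the differences rest on that sample. No sample of either group stood apart from its group in any of the 10 genes by Dixon's test. That test sets the gap at 1 end against the range, so it misses 2 samples that lie apart together. The T348I samples of the Dasa set did so in ELK3 and ETS2.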

How the results depend on the processing

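Of 170 log2 folds of the 10 ETS genes under 17 alternatives, 166 kept their side of the threshold, 0 called folds reversed and 4 lost a call: ETV1 without the set term (0.70), in the dasatinib set alone (0.44) and without WT Dasa replicate 1 (0.44), and ETV6 without the set term (0.40). ELF3, not called in any, ran from -0.04 to 0.03. With no set term the calls numbered 2350 (1234 higher, 1116 lower). The lists then gave 0 other ETS genes lower, 1 regulator of PEA3 genes higher and 2 lower, and 5 described targets higher. The list of genes linked to ELF3 and EHF then gave 0 higher and 1 lower. The other ETS gene called lower, ELF1, was also lost (0 called) with DESeq2, the replicate block, the dasatinib set alone and counts without regard to strand, and 0 to 1 were called leaving out 1 sample. Regulators called lower ranged from 3 to 6 leaving out 1 sample. The change of ETV1 minus that of ETV4, which had no call, was -0.038 in the dasatinib set alone. The cause of these changes was not tested. Replicate numbers gave no sign of pairing in the dasatinib set (correlations of deviations -0.00775, -0.0763 and 0.00328), the only set checked. Such values cannot show that the samples were unpaired. The replicate block called 5372 genes, 7 ETS genes among them. The median log2 fold of all genes ran from -0.02 to 0.0181. Few reads limit ETV1 and EHF.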
